A study of Mus musculus with 4 samples.

Results

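The genes described here are 10 RNA-binding proteins of muscle that set which exons of other transcripts are kept, namely *Rbm20*, *Rbm24*, *Rbfox1*, *Rbfox2*, *Mbnl1*, *Mbnl2*, *Celf1*, *Celf2*, *Ptbp1* and *Srsf1*. They were taken by name and are 10 of the 24454 genes in the count table. All 10 were counted well enough to be among the 14266 genes tested. RNA-seq was done on mouse hearts at postnatal day 7 (P7), with 2 Ctrl libraries (WH7 and WH8) and 2 miR-128OE libraries (WH9 and WH10). Both groups carried *miR-128*TetRE, a *miR-128* sequence under a tetracycline-responsive promoter at the Rosa26 locus, on a C57BL/6 background. The miR-128OE mice also carried *α-MHC*-tTA, which drives the transcriptional activator tTA in cardiomyocytes (CMs), so that *miR-128* is made in CMs when doxycycline (Dox) is withdrawn. The Ctrl mice had no tTA, and thus tTA and *miR-128* cannot be told apart here. When Dox was withdrawn for these P7 hearts is not given in the sources used here. The labels do not say whether the libraries of a group came from separate animals or litters, so the p-values measure only the spread between these libraries.

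Alternative splicing joins different sets of exons from 1 gene, and RNA-binding proteins choose among them by binding the pre-mRNA near an exon. Around birth the heart passes from fetal to adult splice forms of its sarcomere, calcium-handling and cytoskeletal genes. CELF proteins and PTBP1 are known for fetal patterns, whereas MBNL, RBFOX, RBM24 and RBM20 are known for adult or muscle patterns, and SRSF1 is an SR protein that promotes exon inclusion. The table held 1 count per gene and library, and therefore gives the amount of each regulator's RNA and not which exons were used.

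*MiR-128* pairs with mRNAs through its seed, bases 2 to 8 of the mature strand, and such pairing usually lowers the mRNA or its translation. Because the compared mice differ in *miR-128*, its mature sequence (RefSeq, GRCm38.p6) and every seed match found in the longest annotated 3′UTR of the 10 genes (GENCODE M21, GRCm38) are shown first. Capitals mark the seed in the miRNA and the matching bases in the genes. The 7mer-m8 match is CACTGTG, which pairs with bases 2 to 8, and the 7mer-A1 match is ACTGTGA, which pairs with bases 2 to 7 and has an A opposite base 1. Only the transcript strand was searched, and where both overlapped the position was counted once.
miR-128-3p: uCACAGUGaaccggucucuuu
*Rbm20* (7mer-m8, + strand, chr19:53864485-53864513, exon 14 of 14): tcagggattgtCACTGTGtttcaagattt
*Celf2* (7mer-m8, − strand, chr2:6540133-6540161, exon 12 of 12): agtgaataaaaCACTGTGgccagacaatc
*Rbfox2* (7mer-m8, − strand, chr15:77083247-77083275, exon 14 of 14): tttaattgagcCACTGTGcaactcctctg
*Rbfox2* (7mer-m8, − strand, chr15:77081491-77081519, exon 14 of 14): atcctcaaggcCACTGTGctggcttgttg
*Mbnl2* (7mer-A1, + strand, chr14:120429951-120429979, exon 9 of 9): tacagatgcaaACTGTGActttaatctaa
*Srsf1* (7mer-A1, + strand, chr11:88049839-88049867, exon 4 of 4): atgctcttcagACTGTGAtattatgtaaa

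Thus 5 of the 10 genes held 6 matches, while 31.0% of the 13463 tested genes with an annotated 3′UTR held at least 1. The 3′UTRs of the 10 genes had a median length of 3071.5 nt, against 1199 nt over the tested genes, and the members with a match had longer 3′UTRs (median 4149 nt) than those without (median 1778 nt). No match was found for *Rbm24*, *Rbfox1*, *Mbnl1*, *Celf1* or *Ptbp1*. A match describes these letters and is not evidence of binding.

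Library totals ranged from 8096870 to 14359838 counts. The mature *miR-128* is not measured in an mRNA library. Its precursor gene *Mir128-2* had 0 counts in both Ctrl libraries and 2 and 10 counts in the miR-128OE libraries, and *Mir128-1* had 0 in every library, so neither could be tested. Counts of *Xist*, the RNA that silences an X chromosome, were 14543 and 11339 in Ctrl against 94 and 132 in miR-128OE, whereas those of the Y-linked *Ddx3y* were 13 and 7 against 1442 and 1768, so that sex-linked transcripts coincide with genotype and sex cannot be told apart from it. All cardiomyocyte markers looked for were present, and their summed normalized counts were 518955 and 533065 in Ctrl and 697106 and 678659 in miR-128OE, with 5 of the 10 markers called higher and 1 lower. The summed fibroblast markers were 117142 and 76106 against 103176 and 111803 (1 of 8 called higher), and the endothelial markers were 21092 and 21181 against 22114 and 21200 (2 of 7 higher, 2 lower). Smooth muscle and pericyte markers were 22108 and 20546 against 26416 and 30227 (2 of 6 higher, 1 lower), and leukocyte markers were 1125 and 896 against 917 and 905 (of 7 tested, edgeR and DESeq2 called 0, and 1 was lower at an unadjusted p under 0.05). Schwann and neuron markers were 492 and 489 against 387 and 347 (1 of 6 tested higher, 1 lower), and brown fat markers were 390 and 391 against 840 and 638 (3 of 4 called higher). Proliferation genes were 5344 and 7067 against 3724 and 3692 (4 of 8 called lower). Beside these marker counts, edgeR called 16.5% of all tested genes higher and 15.0% lower. DESeq2 called 1 brown fat marker and 0 fibroblast markers higher. It called 1 endothelial marker and 0 smooth muscle and pericyte markers lower, and its other marker counts were the same. Within Ctrl the atrial marker *Myl7*, singled out after its values were seen, had 22943 normalized counts in WH7 and 3309 in WH8, against 10435 and 10316 in miR-128OE, so WH7 stood above WH8 in this gene as well as in the fibroblast sum. No marker was at 0 in all libraries, and the part of these cell types in any result given here was not tested. In heart tissue, fewer cells of a type and less RNA per cell cannot be told apart.

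Of the 10 regulators, *Rbm24* rose in miR-128OE hearts, *Rbm20* and *Celf2* fell, and the other 7 did not pass the test (edgeR's quasi-likelihood test, Benjamini-Hochberg adjusted p under 0.05 over all tested genes). The same test called 16.5% of all tested genes higher and 15.0% lower, so that calls in 10% of the members upwards and 20% downwards stood close to the background. Normalized counts, which are counts scaled by TMM to a common library size, did not overlap between the groups for 6 of the 10 genes. *Rbm24*, *Rbfox2*, *Mbnl2* and *Celf1* were higher in both miR-128OE libraries than in both Ctrl libraries, a pattern shown by 33.7% of all tested genes. *Rbm20* and *Celf2* were lower in both, as were 34.4% of all tested genes. The median log2 fold change of the 10 genes was 0.08, and that of all tested genes was −0.01.

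**Figure D1:**
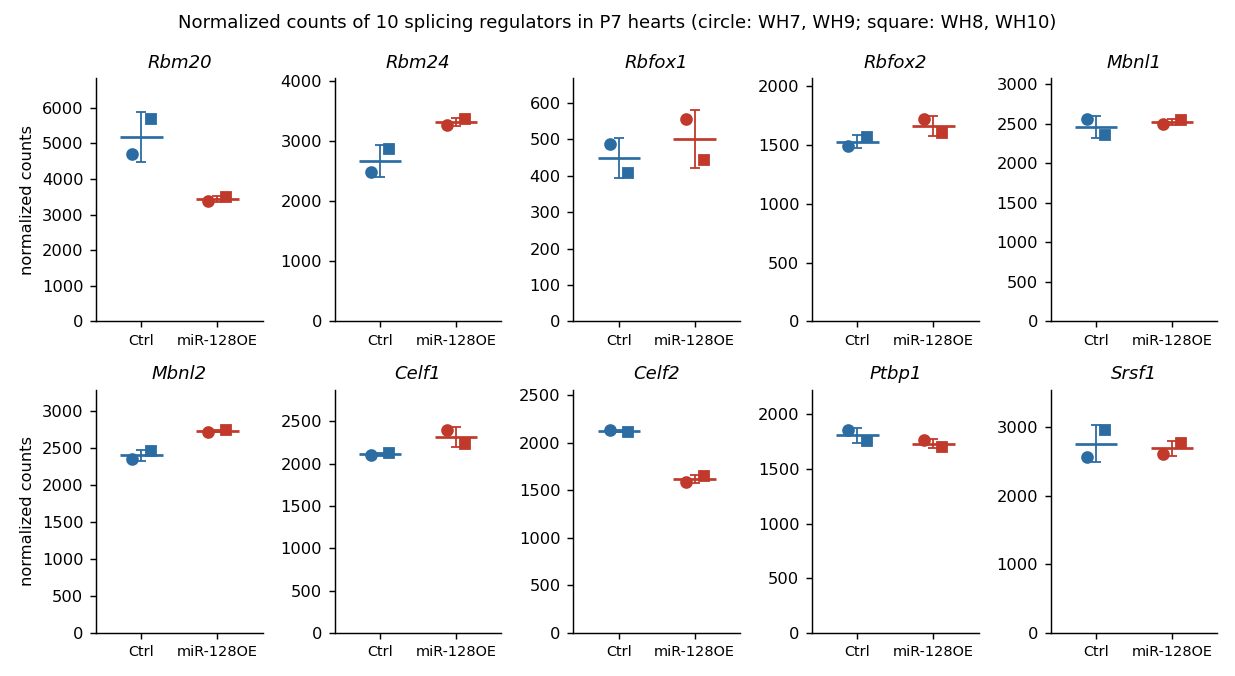
Normalized counts (vertical axis, starting at 0) of each of the 10 regulators in the 2 Ctrl libraries (blue) and the 2 miR-128OE libraries (red) at P7. Circles are WH7 and WH9, squares WH8 and WH10, horizontal bars the group means and error bars the SD (n = 2 per group). The groups stand apart most clearly for *Rbm20* and *Celf2*, which are lower in both miR-128OE libraries, and for *Rbm24*, which is higher in both.

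RBM20 holds back exons of titin and of calcium-handling genes in striated muscle, and mutations in it cause dilated cardiomyopathy. *Rbm20* (Entrez 73713, chr19:53677306-53867080 on the + strand) had 4695 (WH7) and 5687 (WH8) normalized counts in Ctrl, against 3383 (WH9) and 3498 (WH10) in miR-128OE. The Ctrl libraries differed from each other more than the miR-128OE libraries did, but both Ctrl values lay well above both miR-128OE values. The means were 5191 ± 702 in Ctrl and 3441 ± 81.3 in miR-128OE (SD, n = 2 each), so the RNA was 1.51-fold higher in Ctrl. The log2 fold change was −0.59 with a standard error of 0.10 and a 95% interval from −0.82 to −0.36 (adjusted p = 0.00249). *Rbm20* passed the test under each of the 13 alternative settings, with log2 fold changes from −0.72 to −0.44 and an adjusted p of at most 0.0477, reached without WH9.

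RBM24 promotes inclusion of muscle exons and is needed for sarcomere assembly in the developing heart. *Rbm24* (Entrez 666794, chr13:46418434-46431095 on the + strand) had 2485 and 2868 normalized counts in Ctrl and 3280 and 3374 in miR-128OE. The 2 miR-128OE libraries lay close together and above both Ctrl libraries. The rise from 2676 ± 271 to 3327 ± 66.7 (SD, n = 2 each) was 24.5%, with a log2 fold change of 0.32, a standard error of 0.09 and a 95% interval from 0.12 to 0.52 (adjusted p = 0.0246). The call was lost with scaling to total counts (0.22, adjusted p = 0.0855), without WH7, the library with the most *Myl7* (0.22, adjusted p = 0.0508), without WH9 (0.35, adjusted p = 0.1215) and without WH10 (0.31, adjusted p = 0.1399). *Rbm24* had no *miR-128* seed match in its 3′UTR.

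*Rbm20* and *Rbm24* thus moved in opposite directions. Within a library their raw counts can be divided without any scaling between libraries, and WH7 and WH8 held 1.89 and 1.98 *Rbm20* counts for each *Rbm24* count. WH9 and WH10 held 1.03 and 1.04. The groups did not overlap and the mean log2 ratio was lower in miR-128OE by a difference of −0.90. The exact two-sided permutation p was 0.333, the smallest that 2 libraries against 2 can give, and it was 0.533 after adjustment over the 8 ratios computed.

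RBM38 is the closest relative of RBM24 and also a p53 target that acts on RNA stability. *Rbm38* showed the smallest adjusted p among the paralogs examined, with 525 and 557 normalized counts in Ctrl and 1038 and 1019 in miR-128OE. Its log2 fold change was 0.93 with a standard error of 0.08 (adjusted p = 0.000119), and it passed the test under all 13 alternatives. Both RBM24-type genes were therefore higher in miR-128OE hearts, although the call for *Rbm24* itself did not hold in every setting.

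CELF1 and CELF2 bind GU-rich RNA, and their protein levels are known to decline in the postnatal heart. *Celf2* (Entrez 14007, chr2:6539694-7509563 on the − strand) had 2130 and 2116 normalized counts in Ctrl and 1591 and 1644 in miR-128OE. The spread within each group was small beside the gap between them, with means of 2123 ± 9.93 and 1618 ± 37.6 (SD, n = 2 each). The log2 fold change was −0.39 with a standard error of 0.08 and a 95% interval from −0.56 to −0.22 (adjusted p = 0.00448), a fall of 23.8%. It came to −0.18 once an offset removed trends with GC content and exon length (adjusted p = 0.101), and the call was also lost without WH9 (−0.35, adjusted p = 0.0987) and without WH10 (−0.40, adjusted p = 0.0561). *Celf2* has exons that overlap those of *Gm26565* on the opposite strand, and whether counting used strand is not given in the sources used here.

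*Celf1* (Entrez 13046, chr2:90940382-91019497 on the + strand) had 2101 and 2127 normalized counts in Ctrl and 2396 and 2231 in miR-128OE. Although the groups did not overlap, the log2 fold change of 0.13 had an interval from −0.05 to 0.31 (adjusted p = 0.237). The raw *Celf2* to *Celf1* ratio was 1.01 and 0.995 in the Ctrl libraries, nearly equal counts, and 0.664 and 0.737 in the miR-128OE libraries. The groups did not overlap, and the difference in log2 ratio was −0.52 (exact permutation p = 0.333). Among the other CELF genes, *Celf3* had 44.8 and 41.0 normalized counts in Ctrl and 13.9 and 32.0 in miR-128OE (log2 fold change −0.88, adjusted p = 0.115), and *Celf4* had 92.4 and 57.9 against 58.4 and 70.7 (−0.25, adjusted p = 0.519). *Celf3* passed with no filter on low counts, and its log2 fold change ranged from −1.61 to −0.42 over the 13 alternatives. *Celf5* and *Celf6*, with at most 9 counts in any library, were too low to test.

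MBNL proteins bind YGCY motifs, oppose CELF1 on many exons and are the factors trapped by repeat RNA in myotonic dystrophy. *Mbnl1* (Entrez 56758, chr3:60472830-60629750 on the + strand) had 2559 and 2360 normalized counts in Ctrl and 2490 and 2543 in miR-128OE. The miR-128OE values lay between the Ctrl values, and the log2 fold change was 0.03 with an interval from −0.15 to 0.21 (adjusted p = 0.791). Its sign turned negative with upper-quartile scaling, with total counts and without WH8. *Mbnl2* (Entrez 105559, chr14:120275669-120431697 on the + strand) had 2346 and 2449 normalized counts in Ctrl and 2714 and 2734 in miR-128OE, without overlap. Its log2 fold change was 0.18 with an interval from 0.01 to 0.36 and did not pass after adjustment (adjusted p = 0.0937). It did pass with the GC content and length offset (0.31, adjusted p = 0.014) and without WH8 (0.22, adjusted p = 0.044). *Mbnl2* overlaps exons of *Gm26679* on the opposite strand. *Mbnl3*, the X-linked family member known mainly from embryonic and regenerating muscle, had 136 and 215 normalized counts against 124 and 132 (log2 fold change −0.43, adjusted p = 0.160). The log2 fold change of *Mbnl3* ranged from −0.74 to −0.09 over the 12 alternatives that tested it.

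Because MBNL and CELF1 proteins act against each other, their balance within a library was also computed. The *Mbnl1* to *Celf1* ratio was 1.22 and 1.11 in Ctrl and 1.04 and 1.14 in miR-128OE. The *Mbnl2* to *Celf1* ratio was 1.12 and 1.15 against 1.13 and 1.23. Both ratios overlapped between the groups, with log2 differences of −0.09 and 0.06 (exact permutation p = 0.667 for each). The *Mbnl1* to *Mbnl2* ratio was 1.09 and 0.964 in Ctrl and 0.918 and 0.930 in miR-128OE, without overlap and with a log2 difference of −0.15 (exact permutation p = 0.333).

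**Figure D2:**
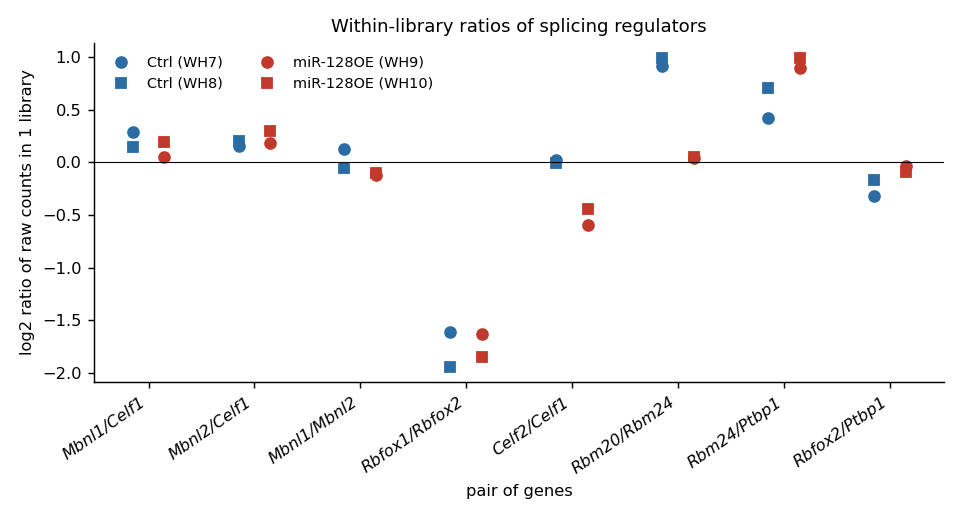
Log2 ratio of the raw counts of 2 regulators within 1 library (vertical axis) for the 8 pairs on the horizontal axis. Blue symbols are the Ctrl libraries (circle WH7, square WH8) and red symbols the miR-128OE libraries (circle WH9, square WH10), and 0 means equal counts. *Rbm20* over *Rbm24* falls from near 1 to near 0, *Celf2* over *Celf1* falls from near 0 to about −0.5, and the MBNL to *Celf1* ratios overlap.

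RBFOX proteins bind GCATG and act as enhancers or silencers of an exon depending on the side on which they bind. *Rbfox1* (Entrez 268859, chr16:5885355-7411526 on the + strand), the form known from heart, skeletal muscle and neurons, had 487 and 408 normalized counts in Ctrl and 555 and 443 in miR-128OE. The groups overlapped and the log2 fold change of 0.15 had an interval from −0.15 to 0.45 (adjusted p = 0.436). It ranged from −0.01 to 0.32 over the alternatives, the lowest value coming without WH9. *Rbfox2* (Entrez 93686, chr15:77078990-77307004 on the − strand), which is expressed in many tissues, had 1489 and 1566 normalized counts in Ctrl and 1720 and 1597 in miR-128OE. The miR-128OE values lay above the Ctrl values by a small margin, and the log2 fold change of 0.12 had an interval from −0.06 to 0.30 (adjusted p = 0.289). *Rbfox2* was the member with 2 matches to the seed. Both miR-128OE libraries held more of its RNA than either Ctrl library, a pattern shown by 33.7% of all tested genes. The part of the seed matches in this was not tested.

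The *Rbfox1* to *Rbfox2* ratio was 0.327 and 0.261 in Ctrl and 0.323 and 0.278 in miR-128OE, which overlapped (log2 difference 0.04, exact permutation p = 1). The neuronal gene *Rbfox3* had at most 4 counts in any library and was too low to test.

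PTBP1 represses muscle and neuronal exons and is known to decline as muscle cells mature. *Ptbp1* (Entrez 19205, chr10:79854427-79864771 on the + strand) had 1853 and 1758 normalized counts in Ctrl and 1759 and 1700 in miR-128OE. WH8 and WH9 were almost equal, and the log2 fold change of −0.06 had an interval from −0.24 to 0.11 (adjusted p = 0.568). The gene shares exonic sequence with *Plppr3* on the opposite strand, which had 101.5 and 103.2 normalized counts in Ctrl against 58.4 and 70.7 in miR-128OE. *Plppr3* was called lower (log2 fold change −0.66, adjusted p = 0.0398), and its part in the counts of *Ptbp1* was not tested. Like *Ptbp1*, *Ptbp3* stayed within its replicate spread, with 1179 and 1085 normalized counts against 1105 and 1088 (log2 fold change −0.05, adjusted p = 0.691). *Ptbp2*, the form that replaces PTBP1 in neurons, had 985 and 1183 normalized counts in Ctrl and 750 and 921 in miR-128OE. Its log2 fold change of −0.37 passed the test (adjusted p = 0.0436), but the call was lost under 4 of the 13 alternatives, with adjusted p up to 0.367.

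Measured against *Ptbp1*, the 2 muscle regulators paired with it were higher in miR-128OE. The *Rbm24* to *Ptbp1* ratio was 1.34 and 1.63 in Ctrl and 1.86 and 1.99 in miR-128OE, and the *Rbfox2* to *Ptbp1* ratio was 0.804 and 0.891 against 0.977 and 0.940. Neither pair overlapped between the groups, and the log2 differences were 0.38 and 0.18 (exact permutation p = 0.333 for each).

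SRSF1 was first known as an essential splicing factor and also has a described role in the heart, where it acts on *Camk2d* splicing. *Srsf1* (Entrez 110809, chr11:88047373-88053755 on the + strand) had 2568 and 2955 normalized counts in Ctrl and 2613 and 2768 in miR-128OE. The miR-128OE values lay inside the Ctrl range, and the log2 fold change of −0.04 had an interval from −0.24 to 0.17 (adjusted p = 0.793). The sign turned positive with the GC content and length offset, without WH8 and without WH9. *Srsf1* overlaps exons of *Gm11508* on the opposite strand.

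**Figure D3:**
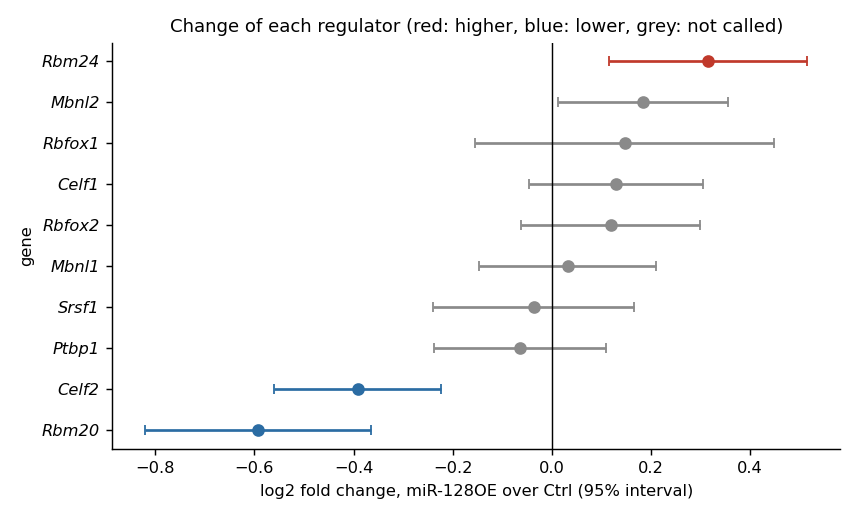
Log2 fold change of miR-128OE over Ctrl (horizontal axis) for each regulator, with 95% intervals as error bars (edgeR, 2 libraries per group). Red marks the gene called higher, blue the genes called lower and grey those not called. The intervals of *Rbfox1*, *Celf1*, *Rbfox2*, *Mbnl1*, *Srsf1* and *Ptbp1* cross 0, and that of *Mbnl2* starts at 0.01.

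Set beside the sequences shown above, the members with a seed match had log2 fold changes of −0.59 (*Rbm20*), −0.39 (*Celf2*), −0.04 (*Srsf1*), 0.12 (*Rbfox2*) and 0.18 (*Mbnl2*). Those without a match had −0.06 (*Ptbp1*), 0.03 (*Mbnl1*), 0.13 (*Celf1*), 0.15 (*Rbfox1*) and 0.32 (*Rbm24*). The values of the genes with and without a match overlapped, and their 3′UTRs differed in length as given above.

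To compare the amounts of different regulators, TMM-scaled CPM values were divided by the length of the gene's merged exons in kb. On this level scale *Rbm24* (65.1 ± 6.59 in Ctrl, 81.0 ± 1.62 in miR-128OE) and *Rbm20* (64.9 ± 8.78 and 43.0 ± 1.02) stood highest (SD, n = 2 each). *Srsf1* followed at 41.1 in Ctrl and 40.0 in miR-128OE. *Ptbp1* stood at 32.4 and 31.0, *Celf1* at 21.3 and 23.3, *Mbnl2* at 17.0 and 19.3 and *Rbfox2* at 15.9 and 17.3. The lowest levels were those of *Mbnl1* (11.2 and 11.4), *Rbfox1* (8.64 and 9.64) and *Celf2* (6.97 and 5.31). The order was the same in both groups, but *Rbm24* and *Rbm20* overlapped in Ctrl and did not in miR-128OE, and no other neighbours in the order overlapped. The merged exons of *Celf2* (25884 bases) and *Mbnl1* (18717 bases) are long, and dividing by the longest complete transcript instead, a choice made after the data were seen, changed the order. *Rbm20* (90.1) then stood above *Rbm24* (73.7) in Ctrl and below it in miR-128OE (59.7 against 91.6), *Mbnl1* (36.9 in Ctrl) stood above *Celf1* (22.9), and *Rbfox1* had the lowest mean in both groups (12.4 and 13.9). On that scale the libraries of *Rbfox1* and *Celf2* overlapped in miR-128OE, as did those of *Mbnl2* and *Srsf1* in Ctrl.

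The wider splicing machinery was examined through lists of 103 other splicing regulators and 77 core spliceosome genes. Of the other regulators, 95 were tested, 9 (9.47%) were higher and 22 (23.2%) lower in miR-128OE, and the list's median was −0.05 on the log2 scale. For this list and each list below, the shares over all tested genes were 16.5% higher and 15.0% lower. With scaling to total counts the split was 6 higher and 32 lower, and with the GC content and length offset it was 13 higher and 18 lower. Among SR proteins, which bind exonic enhancers, 3 of 13 fell and 0 rose by edgeR's test, with a list median of −0.04. DESeq2 also called 0 higher, and 2 were higher at an unadjusted p under 0.05 in edgeR. The SR genes that fell were *Srrm1* (4207 and 4528 normalized counts in Ctrl, 2420 and 2617 in miR-128OE, log2 fold change −0.79, adjusted p = 0.000236), *Srsf11* (−0.64, adjusted p = 0.00125) and *Tra2a* (−0.51, adjusted p = 0.0033). *Tra2a* was lost without WH9.

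The kinases that phosphorylate SR proteins had 3 of 8 genes lower and 0 higher (also 0 higher by DESeq2 and at an unadjusted p under 0.05 in edgeR), and their log2 fold changes ran from −0.54 to −0.16 with a median of −0.26. *Prpf4b* (−0.54, adjusted p = 0.00199) and *Clk4* (−0.45, adjusted p = 0.0131) were lost without WH9, and *Srpk2* (−0.26, adjusted p = 0.0393) was lost in 5 of 13 alternatives. Of 25 hnRNP proteins, which often act as silencers, 3 rose and 3 fell, with a median of 0.06. *Hnrnpa0* (0.40, adjusted p = 0.00637) and *Pcbp1* (0.35, adjusted p = 0.0118) rose and *Hnrnph1* (−0.41, adjusted p = 0.0117) fell, and each of these calls was lost without WH9. The call for *Hnrnph1* was also lost without WH10, and that for *Pcbp1* with the GC content and length offset. Of the paralogs of the 10 members 6 of 9 were tested, and besides *Rbm38* and *Ptbp2* none passed with the settings described in the processing.

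Among 43 tested alternative splicing regulators of other families, 5 rose and 12 fell, with a median of −0.04. The 3 with the smallest p-values were all lower and passed under all 13 alternatives. *Acin1*, a subunit of a complex bound to spliced exons, had 4304 and 4575 normalized counts in Ctrl and 2194 and 2498 in miR-128OE (log2 fold change −0.92, adjusted p = 0.000163). *Son*, a nuclear speckle protein, had 12342 and 13321 against 6591 and 7318 (−0.88, adjusted p = 0.000236). *Rbm25*, which associates with the U1 particle, had 7692 and 8226 against 4154 and 4755 (−0.84, adjusted p = 0.000345). These differences were larger than that of *Rbm20*, the member with the largest one.

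Nuclear-retained RNAs also differed between the libraries, which was looked at after the values were seen. The speckle RNA *Malat1* had 263862 and 268818 normalized counts in Ctrl and 90986 and 106660 in miR-128OE (log2 fold change −1.43, adjusted p = 4.01e-05), and *Meg3* had 6682 and 6720 against 3430 and 3983 (−0.85, adjusted p = 0.000286). *Neat1*, another nuclear RNA, went the other way, with 9111 and 11888 against 13991 and 16204 (0.52, adjusted p = 0.0145). The part of nuclear RNA content in the values of *Rbm20*, *Celf2* and the lower splicing regulators was not tested.

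The core spliceosome comprises the snRNP proteins and helicases that carry out the reaction. Of its 77 listed genes, 9 were higher (11.7%) and 10 lower (13.0%), against 16.5% and 15.0% of all tested genes. The list's median was 0.01 on the log2 scale. With total counts the split became 2 higher and 15 lower. *Prpf40b* (−0.73, adjusted p = 0.000759), *Snrnp48* (−0.69, adjusted p = 0.00106) and *Slu7* (−0.57, adjusted p = 0.00117) had the smallest p-values. *Slu7*, which acts in choice of the 3′ splice site, had 859 and 885 normalized counts in Ctrl and 584 and 586 in miR-128OE.

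**Figure D4:**
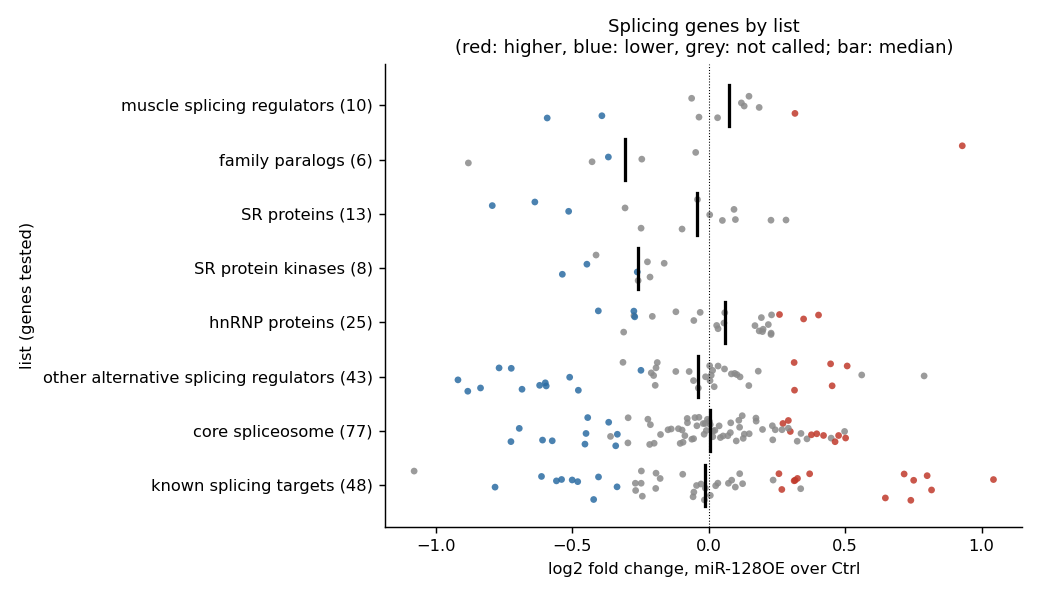
Log2 fold change of miR-128OE over Ctrl (horizontal axis) for every tested gene of 8 lists of splicing genes, 1 point per gene, with the number tested in brackets and a black bar at the list's median. Red points were called higher, blue lower and grey not called by edgeR. The 10 muscle regulators lie between −0.59 and 0.32, while paralogs, other regulators and splicing targets spread to about 1 on either side.

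Genes whose splicing these regulators are known to control were taken as a last list, and here again only their total RNA was measured. Of 48 genes, 13 were higher (27.1%) and 9 lower (18.8%), against 16.5% and 15.0% of all tested genes, and the median was −0.01 on the log2 scale. With total counts the split was 8 and 16. *Pdlim5*, a Z-disc protein with RBM20-regulated exons, had 3640 and 4007 normalized counts in Ctrl and 6959 and 6501 in miR-128OE (log2 fold change 0.82, adjusted p = 0.000279). *Pkm*, whose alternative exons are chosen by PTBP1, had 9228 and 9567 against 15993 and 15632 (0.75, adjusted p = 0.000327). *Vcl* (0.72, adjusted p = 0.000338) and *Tpm2* (1.04, adjusted p = 0.000613), for vinculin and β-tropomyosin, were also higher. The X-linked *Mtmr1*, for a lipid phosphatase, had the largest called decrease (−0.78, adjusted p = 0.00194), and sex coincides with genotype here. In the fit of autosomal genes, which leaves *Mtmr1* out, 13 of 47 targets were higher and 8 lower.

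The best known RBM20 targets, all part of the list counted above, were singled out after their values were seen. *Ttn*, for titin, had 70319 and 77740 normalized counts in Ctrl and 59121 and 58146 in miR-128OE (log2 fold change −0.34, adjusted p = 0.0228), but the GC content and length offset turned it to 0.07, and it was also lost without WH9 and without WH10. *Ryr2*, the calcium release channel, had 9023 and 9523 against 7080 and 6932 (−0.40, adjusted p = 0.00655) and was lost under the same 3 alternatives. *Camk2d*, a calcium-dependent kinase, had 2719 and 2899 against 2909 and 2837, and its log2 fold change of 0.03 had an interval from −0.14 to 0.21 (adjusted p = 0.780). *Camk2d* did pass with the GC content and length offset, and its log2 fold change ranged from −0.07 to 0.23 over the 13 alternatives. *Ldb3*, for a Z-disc protein, had 7813 and 8872 against 10918 and 10634 (0.37, adjusted p = 0.0150), a call lost without either miR-128OE library. *Cacna1c*, a calcium channel subunit, had 4150 and 5967 against 3437 and 3514 (−0.54, adjusted p = 0.0192) and was lost in 4 of 13 alternatives. *Trdn*, for triadin, had 8389 and 8542 against 5880 and 5189 (−0.61, adjusted p = 0.00128), and its own values under the alternatives are not given here. Since these genes were picked after their values were seen, no separate count is drawn from them. Their calls are included in the counts of the whole list given above.

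**Figure D5:**
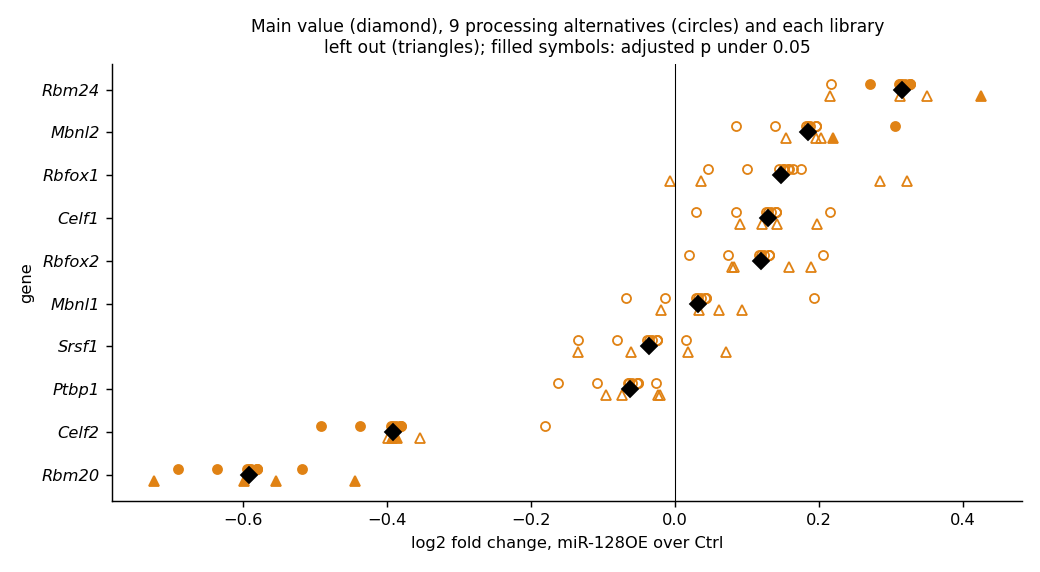
Log2 fold change of miR-128OE over Ctrl (horizontal axis) of the 10 regulators with the settings described in the processing (black diamond), under 9 other settings (orange circles) and with each library left out (orange triangles). Filled circles and triangles mark an adjusted p under 0.05. All symbols of *Rbm20* are filled, those of *Celf2* and *Rbm24* are filled in part, and those of *Rbfox1*, *Mbnl1* and *Srsf1* fall on both sides of 0.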

How the data were processed

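The deposited table held the authors' raw counts per gene (Entrez identifier) for 4 libraries. Per the study's methods, low-quality reads were removed, the rest were aligned to the mouse genome (mm10, which is GRCm38) with TopHat2, and reads on known genes were counted with Bioconductor packages. The gene models, strand setting and treatment of multi-mapping reads are not given in the sources used here. Symbols were matched for 24374 of 24454 identifiers, and the 80 without one held 2.73 to 3.74% of the counts.

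Genes passing filterByExpr (minimum count 10, minimum total 15) were scaled by TMM and tested with the quasi-likelihood test of edgeR 4.0.16 in R 4.3.3, with Benjamini-Hochberg adjustment over 14266 genes and a threshold of 0.05. The common biological coefficient of variation was 8.78%, and a floor set at 3 counts equals 0.209 to 0.371 CPM. The script was tested on simulated data. Ratios were compared by exact permutation tests (scipy 1.17.1). The alternatives were DESeq2 1.42.0, a likelihood ratio test, other scalings, other filters, each library's loess trend on GC content and exon length (span 0.5) taken out as an offset, a fit of autosomal genes, an adjusted p under 0.01 and each library left out. Per-length levels with the longest transcript were added after the data were seen.

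The members and lists were chosen with earlier results of these data known. Named are all members, all their paralogs, the 3 genes with the smallest p-value of each other list and, for the SR, hnRNP and target lists, the largest called change in each direction. Others are marked as chosen after their values were seen.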

Additional observations from a re-analysis of the deposited data

How the results depend on the processing

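Of the 130 values of the 10 members (13 alternatives each), 114 kept their direction and their side of the threshold. Among all tested genes, 897 were called higher without WH9, 1265 without WH10, 2654 without WH7 and 2488 without WH8, against 2347 with all 4 libraries. For these and all other changed counts the cause was not tested. Of the 10 members, 1 was called higher and 2 lower. With total counts 0 were higher, with the GC content and length offset 2 were higher and 1 lower, with an adjusted p under 0.01 there were 0 higher, and leaving out each library in turn gave 0 to 2 higher and 1 to 2 lower. The members not called at 0.05 included values that changed sign. *Mbnl1* was −0.0139 with upper-quartile factors, −0.0677 with total counts and −0.0201 to 0.0931 with a library left out. *Srsf1* was 0.0157 with the GC content and length offset and −0.134 to 0.0715 with a library left out, and *Rbfox1* was −0.00631 to 0.322 with a library left out. Leaving out a library gave 2 to 13 higher and 11 to 34 lower for the other splicing regulators, 1 to 10 higher and 4 to 14 lower for the core spliceosome, and 6 to 15 higher and 2 to 14 lower for the known targets. With an adjusted p under 0.01 these lists had 5 higher and 14 lower, 1 higher and 6 lower, and 6 higher, respectively. DESeq2 called 3 core spliceosome genes higher, and total counts called 2. Among the known targets total counts called 8 higher and 16 lower, and 14 were lower with no filter on low counts. Over all tested genes the split was 2347 higher and 2143 lower, 1611 and 2948 with total counts, where the median over the whole table was −0.11 in place of −0.01, and 1699 and 1320 with DESeq2. No paired analysis was possible because the labels give no replicate numbers or pairs. Ratios of raw counts within a library kept their sign with a pseudocount of 5, and with 2 libraries per group no permutation test could pass 0.05.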
